A study of Cochliomyia hominivorax with 18 samples.

Results

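Larval midguts of the New World screwworm, Cochliomyia hominivorax, were compared during tetracycline rearing and without it. The comparison took 6 of the 18 libraries of the series, chosen by their sample labels: 3 on-Tc libraries (larvae on tetracycline) and 3 control libraries (larvae labelled control). All come from production flies and from tissue labelled midgut. The labels give no strain, genotype, larval age, sex, tetracycline dose or number of guts per library for any group. Another 3 larval libraries, labelled post-Tc, and 9 adult libraries in the same 3 groups lie outside the comparison. The post-Tc libraries share its filter and its estimate of spread, and their levels and distances are set beside those of the 6. Adult libraries are tested apart, on-Tc against control, and together with the larval ones for the difference between stages. The series text describes sampling before, during and after the antibiotic, so time of collection and tetracycline cannot be told apart.

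The larval midgut secretes digestive enzymes, takes up nutrients and holds the gut bacteria, and a screwworm larva feeds it with living flesh. Tetracyclines bind the bacterial ribosome and stop translation there, and in animal cells they can also slow translation in mitochondria, whose ribosomes resemble bacterial ones. In screwworm strains built to yield males alone, the drug is fed to keep a lethal female transgene switched off, and the series asks what rearing with it does to the gut. The deposited table numbers its predicted transcripts (g for the gene number, t for the transcript number) and pairs no gene name with any of them, so neither the midgut label nor any pathway could be checked against marker genes. Transcripts are therefore described by ID, level and pattern.

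On-Tc libraries held 30221028 to 46958717 counts and control libraries 55019148 to 78052370, so that every on-Tc library was shallower than every control. Of 22420 listed transcripts, 11584 passed the filter on low counts. Nothing in the labels says whether the 3 libraries of a group came from separate animals or cages, so the spread behind each p-value is that between libraries and may be technical. Levels are in CPM (counts divided by the library's scaled total), scaled by the trimmed mean of M-values (TMM), and they are not corrected for transcript length, so levels of different transcripts are not compared.

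No transcript differed between on-Tc and control larvae at a false discovery rate (FDR) of 0.05 by edgeR's quasi-likelihood test: 0 of 11584, or 0%, with a smallest FDR of 0.302 that a pair of transcripts, g1590.t1 and g19902.t1, had in common. At an unadjusted p under 0.05 stood 284 transcripts (2.45%), of which 113 (0.975%) were higher and 171 (1.48%) lower on-Tc. DESeq2 called 16 transcripts (0.139% of 11523 with an adjusted p), 3 higher and 13 lower, and limma-voom called 0. In 14 of those 16 the on-Tc libraries lay wholly outside the control range, against 7.4% of all transcripts tested. All 16 had an unadjusted edgeR p of 0.0131 or less. The 16 were chosen for their difference in these same counts, so neither value adds to the calls. The most separated transcripts in each direction are given library by library below, followed by a run of neighbouring gene numbers.

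The transcript closest to the threshold was g1590.t1, which was low and even on tetracycline. It stood at 5.26, 5.92 and 4.67 CPM in on-Tc libraries 1 to 3, against 26.7, 32.2 and 16.1 CPM in control libraries 1 to 3. Every on-Tc library was below every control, and the on-Tc libraries were tightly grouped. The fitted log2 difference was -2.24 ± 0.29 (SE; 95% interval -2.90 to -1.58), a 4.73-fold lower level, with an edgeR FDR of 0.302. The post-Tc larvae were at the on-Tc level, with 5.44, 5.63 and 4.88 CPM. Adult midguts had it at 20.6, 23.4 and 27.3 CPM on-Tc, against 41.3, 73.1 and 23.2 CPM in adult controls, ranges that overlap (edgeR FDR 0.205 in adults). DESeq2 called the larval difference (FDR 2.5e-08), while the FDR lay between 0.141 and 1 in the other 15 of 16 alternatives.

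In the other direction, g19902.t1 was highest on tetracycline. Its level was 14.9, 12.96 and 25.3 CPM in the on-Tc libraries, against 2.42, 2.496 and 3.85 CPM in the controls. Here too the groups were well apart, with the lowest on-Tc library above the highest control. The log2 difference was 2.60 ± 0.36 (SE; 95% interval 1.78 to 3.42), or 6.06-fold higher, at an edgeR FDR of 0.302. Post-Tc larvae, at 5.12, 5.09 and 7.82 CPM, lay between the other groups and overlapped neither. In adults the transcript was near absent, with at most 0.183 CPM in any of the 9 libraries. DESeq2 called it in larvae (FDR 3.9e-08), and its FDR in the other alternatives was 0.179 to 1.

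The remaining pair chosen by the same rule was less even within groups. For g15044.t1 the on-Tc libraries had 1.85, 15.6 and 11.6 CPM, against 0.860, 0.319 and 0.623 CPM in controls. On-Tc library 1 was well below the other two on-Tc libraries but still above all controls. Its log2 difference was 4.001 ± 0.90 (SE, 3 libraries a group; edgeR FDR 0.999), and post-Tc larvae, at 0.271, 0.200 and 1.03 CPM, were near the controls. For g16137.t1 the levels were 0.431, 0.489 and 0.881 CPM on-Tc, against 4.41, 8.88 and 8.90 CPM in controls. Its groups did not overlap, and the log2 difference was -3.61 ± 0.69 (SE; edgeR FDR 0.999). Post-Tc larvae had 1.25, 3.64 and 0.587 CPM of g16137.t1, so that post-Tc library 3 lay within the on-Tc range and the other two above it. DESeq2 called both (FDR 0.0014 and 1.4e-04), and edgeR called neither in any of its fits.

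**Figure D1:**
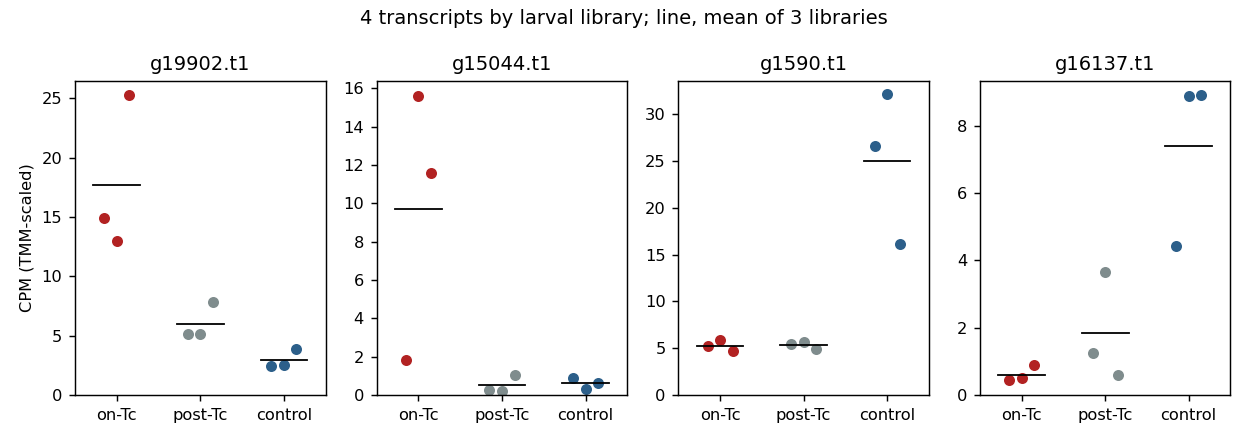
CPM of g19902.t1, g15044.t1, g1590.t1 and g16137.t1 in each of 9 larval libraries (points) in the on-Tc, post-Tc and control groups, with the mean of each group (line). On-Tc and control points do not overlap in any panel, and the post-Tc points of g1590.t1 lie at the on-Tc level, 4.88 to 5.63 CPM.

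A run of neighbouring gene numbers was low together in the on-Tc larvae. It was singled out after its values were seen and is therefore described without a test. Among all transcripts tested, 57 (0.492%) were at least 4-fold lower on-Tc with groups that did not overlap, and 15 (0.129%) were at least 4-fold higher. A run was defined as at least 3 such transcripts with no step in gene number above 3. The 57 held 1 run and the 15 held none. It extended from g6637.t1 to g6649.t1 and took up 11 of the 57. All 13 gene numbers in that span have 1 listed transcript; 11 were tested, and the 2 left untested, numbers 6645 and 6648, were at or near 0 in every larval library. Numbers follow the authors' gene prediction. Coordinates were not used here, so that neighbours in number are not shown to be neighbours on a chromosome, and reads of near-identical copies could have been split among them.

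All 11 transcripts of the run were lower in every on-Tc library than in any control. Their summed level was 6.03, 1.36 and 4.14 CPM in on-Tc libraries 1 to 3 (196, 64 and 188 counts), against 57.6, 33.1 and 388 CPM in control libraries 1 to 3 (3618, 1659 and 31127 counts). The lowest control sum was 5.49-fold above the highest on-Tc sum, and control 3 stood far above the other controls. The transcript at the end of the run, g6649.t1, had 2.06, 0.298 and 1.59 CPM on-Tc, against 22.01, 9.04 and 147.8 CPM in controls. For g6638.t1 the on-Tc libraries had 0.0615, 0 and 0.0441 CPM, against 2.34, 4.51 and 27.7 CPM in controls. The weakest separation was that of g6641.t1, at 0.123, 0 and 0.0441 CPM on-Tc and 0.955, 0.160 and 1.87 CPM in controls, where control 2 barely exceeded on-Tc 1. Fitted log2 differences ran from -8.35 to -3.47 over the 11, with a median of -5.51 (all transcripts tested, -0.01). Their sizes rest on few on-Tc counts, since 5 of the 33 on-Tc values were 0 and the highest was 83 counts. Without control 3 the fitted differences ran from -6.58 to -2.40 with a median of -3.56. EdgeR called 0 of the 11 at an FDR of 0.05 and DESeq2 called 6, which make up 6 of its 16 calls. The count of 11 was the same under the other scalings and with libraries thinned to equal totals.

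The run also varied widely within groups. Post-Tc larvae had summed levels of 23.3, 138.9 and 2.79 CPM, so that post-Tc 3 lay within the on-Tc range and post-Tc 2 above the lower control sums. Control 3 was the highest of the 9 larval libraries for all 11 transcripts, and post-Tc 2 was the second highest for 9. Across the 9 larval libraries the log2 levels of the 11, with 0.1 CPM added, had pairwise Pearson coefficients of 0.832 or more (55 pairs, median 0.933). The 11 were chosen for their difference in 6 of these 9 libraries, which by itself raises the coefficients, and the libraries' depth and scaling are shared, so the coefficients show nothing beyond that choice. The tested transcripts next to the run had to fail its rule, since otherwise they would have been counted in it. Their values therefore do not set the run apart and are given as description. For g6651.t1 the levels were 59.5, 60.7 and 51.5 CPM on-Tc, against 52.9, 80.02 and 59.5 CPM in controls, and for g6635.t1 they were 0.400, 0.213 and 1.19 CPM on-Tc, against 0.430, 0.719 and 0.212 CPM in controls. Both overlapped between groups. The digit in the library name went with the run except in 1 library. The 4 highest sums, of post-Tc 2 and the 3 controls, belong to libraries with the digit 1, and the 4 libraries with the digit 2 had sums of 2.79 to 23.3 CPM. On-Tc 2 also carries the digit 1 and had the lowest sum of all, 1.36 CPM. With 1 on-Tc library of digit 1 and no control of digit 2, the part of the digit in the run was not tested.

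**Figure D2:**
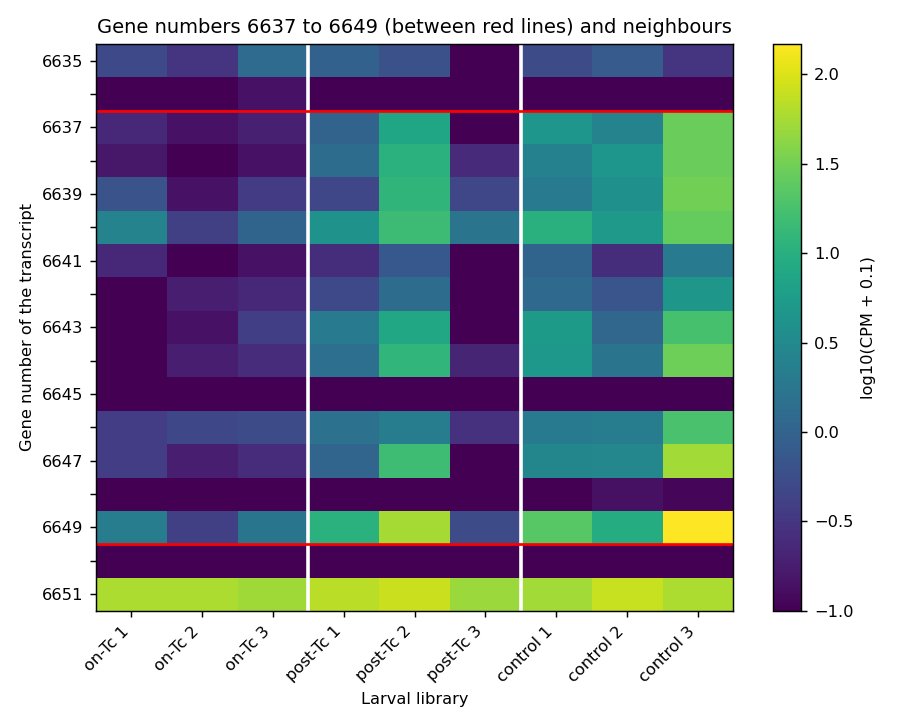
Level of each transcript with gene numbers 6635 to 6651 (rows, log10 of CPM + 0.1) in the 9 larval libraries (columns, in the on-Tc, post-Tc and control groups). Rows 6637 to 6649, between the red lines, are, for the 11 tested transcripts, darker in all on-Tc libraries and in post-Tc 3 than in any control and brightest in control 3, while row 6651 is alike in all 9.

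With the threshold at 2-fold in place of 4-fold, a second and smaller run of lower transcripts appeared, from g13602.t1 to g13606.t1, with 4 members. The abundant one, g13604.t1, stood at 58.7, 48.0 and 45.8 CPM in on-Tc libraries, against 118.2, 105.7 and 108.1 CPM in controls. Its on-Tc values were less than the lowest control by a wide margin in all 3 libraries, and its log2 difference was -1.12. Post-Tc larvae had 123.6, 108.5 and 38.2 CPM, at the control level in libraries 1 and 2 and below the on-Tc range in library 3. The other members were low and more narrowly separated. Levels of g13602.t1 were 0.123, 0.128 and 0.0881 CPM on-Tc, against 0.159, 1.22 and 0.759 CPM in controls. In g13606.t1 they were 0.492, 0.170 and 0.551 CPM on-Tc, against 0.621, 1.32 and 1.32 CPM. The highest level of g13605.t1 in the 6 libraries was 4.91 CPM, in control 2. The share of all transcripts meeting the 2-fold rule is not given here, so this run was not weighed against it. No run of higher transcripts was found at either threshold.

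The fitted differences of most transcripts were small, and how tightly a difference could be bounded depended on their level. Over all 11584 the median fitted log2 difference was -0.01 and the median size of a difference 1.20-fold. A difference of at least 2-fold was fitted for 393 transcripts in the higher and 687 in the lower direction. The 95% interval, not adjusted for the number of transcripts, lay wholly inside 2-fold either way for 4095 transcripts (35.4%) and inside 4-fold for 76.7%. It lay wholly beyond a 2-fold difference for 6 higher and 25 lower transcripts. The tightest group had mean levels of 10 to 100 CPM: among those 4313 transcripts the interval typically extended 1.61-fold to either side, and 56.9% were bounded inside 2-fold. Among the 2431 transcripts under 1 CPM it extended 3.10-fold, and 0.658% were bounded inside 2-fold. Bounded inside 2-fold were also 27.4% at 1 to 10 CPM, 50.5% at 100 to 1000 CPM and 44.2% from 1000 CPM up. For most transcripts tested, and nearly all under 1 CPM, the intervals thus did not hold a difference to less than 2-fold.

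**Figure D3:**
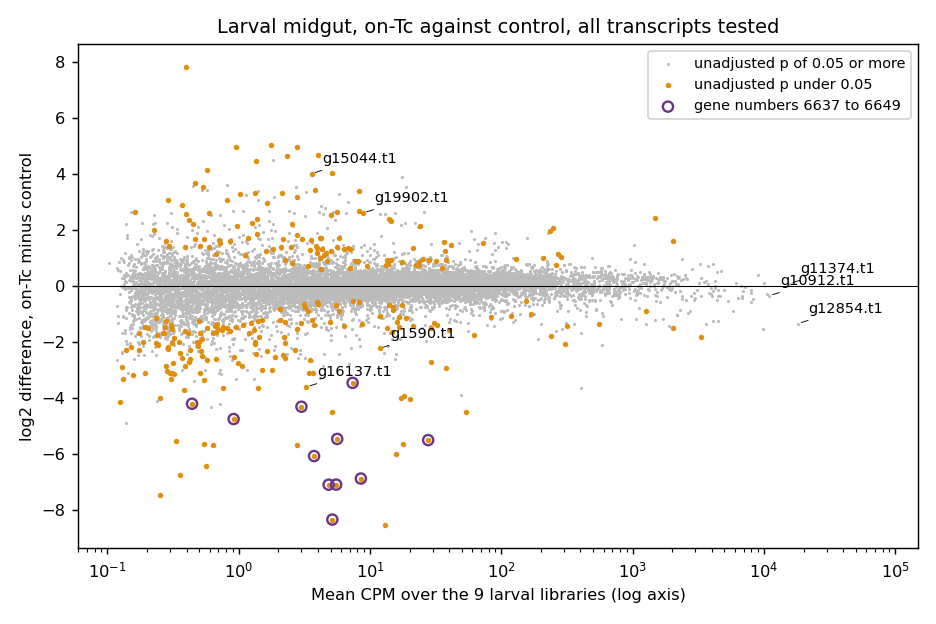
Fitted log2 difference, on-Tc minus control, of 11584 transcripts (points) against mean CPM over the 9 larval libraries (log axis), with transcripts at an unadjusted edgeR p under 0.05 in orange, the run of gene numbers 6637 to 6649 circled and 7 named transcripts labelled. The median size of a difference is 1.41-fold under 1 CPM, 1.14-fold at 10 to 100 CPM and 1.21-fold from 1000 CPM up. The circled run lies between -8.35 and -3.47.

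Transcripts whose groups did not overlap leaned to the lower side on tetracycline, counted over all levels. On-Tc and control libraries did not overlap for 857 transcripts (7.4%), 316 of them higher (2.73%) and 541 lower (4.67%) on-Tc. Of transcripts under 1 CPM, 158 had at least a 2-fold difference in the higher direction and 392 in the lower. These numbered 171 and 181 at 1 to 10 CPM and 50 and 75 at 10 to 100 CPM. At 100 to 1000 CPM they numbered 11 and 25, and from 1000 CPM up 3 and 14, so the lean was not particular to low transcripts. Over all levels the balance depended in part on the scaling. With library totals alone the groups did not overlap for 376 higher and 419 lower transcripts, and unadjusted p-values under 0.05 by edgeR numbered 131 higher and 127 lower, against 113 and 171 with TMM. With size factors by relative log expression (RLE) there were 136 higher and 156 lower. Under 1 CPM the lean was kept in each setting. At least 2-fold differences there numbered 177 higher and 369 lower with library totals alone, and 172 and 383 with RLE. With libraries thinned to equal totals they numbered 130 and 289. With all libraries thinned to 30221028 counts, the non-overlapping transcripts numbered 305 higher and 487 lower, so that 61.5% of them were lower at equal totals, against 63.1% at the deposited totals.

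The number of transcripts detected pointed the same way. At equal totals the on-Tc libraries had at least 1 count for 13820, 13633 and 13824 transcripts, against 14503, 14455 and 13943 in the controls. Every on-Tc library detected fewer than every control. The means were 13759 ± 109 on-Tc and 14300.3 ± 310 in controls (SD, n = 3 each), a difference of -541, and an exact permutation test (two-sided, 10 splits) gave p = 0.1, the smallest that 3 against 3 allows. Counting only transcripts with at least 10 counts, the ranges overlapped, at 10647, 10169 and 10592 on-Tc and 10929, 10593 and 10305 in controls. Complete absence from a group was rare. With the deposited counts, 9 transcripts had a count in every on-Tc library and 0 in all controls, and 148 had a count in every control and 0 in all on-Tc libraries; at equal totals the numbers were 18 and 69. At a minimum of 10 counts per library there were 0 in either direction, the strictest level looked at.

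Among the 100 transcripts with the most counts over the larval libraries, 43 were higher and 57 lower on-Tc, with a median size of 1.23-fold (all transcripts, 1.20-fold), and 31 had a 95% interval inside 2-fold. At least 2-fold differences were fitted for 1 higher and 11 lower, against 393 higher and 687 lower among all 11584 transcripts tested. Those 100 took 37.0%, 33.6% and 37.2% of counts in on-Tc libraries, against 35.1%, 45.8% and 39.1% in controls, where control 2 stood highest and the groups overlapped.

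The most counted transcript, g12854.t1, had 6123, 11202 and 10521 CPM on-Tc, against 7103, 39275 and 24847 CPM in controls. Control 1 lay within the on-Tc range, and the log2 difference of -1.35 ± 0.67 (SE; edgeR FDR 0.999) became -0.79 without control 2. For g11374.t1 the levels were 20040, 15608 and 7856 CPM on-Tc and 8625, 16060 and 16621 CPM in controls. These ranges overlapped almost fully, with a log2 difference of 0.07 ± 0.58 (SE) whose sign turned in 4 of 16 alternatives. The third, g10912.t1, was at 7698, 5799 and 9570 CPM on-Tc and 8832, 13007 and 7787 CPM in controls, a log2 difference of -0.36 ± 0.37 (SE; 95% interval -1.21 to 0.48).

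Among the 100, 3 transcripts had an unadjusted edgeR p under 0.05, each with an FDR of 0.999, a share near the 2.45% of all transcripts tested. They are described without a call and are named after their values were seen. For g5459.t1 the levels were 2164, 835 and 463 CPM on-Tc, against 6260, 4614 and 1416 CPM in controls, and on-Tc 1 exceeded control 3. The levels of g6484.t1 were 991, 631 and 621 CPM on-Tc, against 923, 3496 and 1920 CPM in controls, again with 1 control inside the on-Tc range. The only one of the 3 without overlap was g11379.t1, at 1799, 5032 and 1742 CPM on-Tc and 1161, 857 and 826 CPM in controls (log2 difference 1.59 ± 0.63, SE).

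By their median distance, libraries of one group were no more alike than libraries of different groups. The distance between 2 libraries was taken as the root mean square difference in log2 CPM over the transcripts tested. It was 0.884 to 1.296 (median 1.01) for the 9 on-Tc to control pairs, 0.974 to 1.19 (median 1.13) for the 3 pairs within on-Tc and 0.898 to 1.11 (median 1.06) for the 3 pairs within control. On-Tc 1 was nearest to control 3, on-Tc 2 to post-Tc 3 and on-Tc 3 to control 1, so that each on-Tc library had its nearest larval neighbour outside its own group. Of the controls, control 1 was nearest to on-Tc 3 and control 2 to post-Tc 1, while control 3 was nearest to control 1, inside its own group (0.898). The first principal component of the 6 libraries held 33.8% of their variance and the second 21.2%; control 2 and on-Tc 1 lay on one side of the first and on-Tc 2 at the other end. Within a group the median SD of a transcript's log2 CPM was 0.459 on-Tc and 0.382 in controls.

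**Figure D4:**
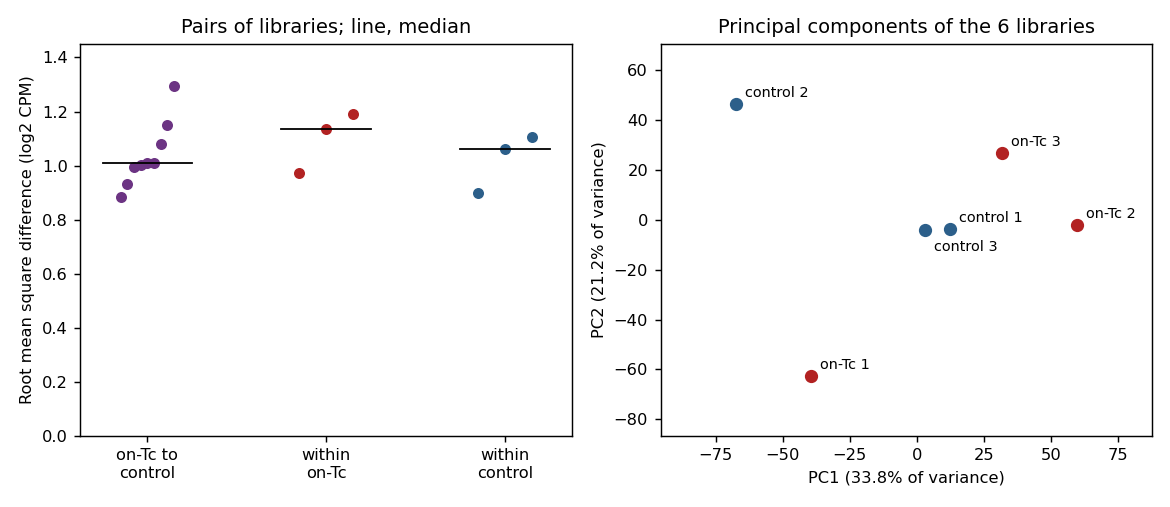
Left, root mean square difference in log2 CPM for pairs of larval libraries (points; line, median), from on-Tc to control and within each group; the 9 on-Tc to control pairs span 0.884 to 1.296 and cover both within-group ranges. Right, first and second principal components of the 6 libraries, where the groups are intermixed along the first axis.

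Single libraries also carried levels of their own. A transcript was counted as high in 1 library where it had at least 5 CPM there and at least 5-fold its highest level in the other 5 libraries of the comparison. There were 100 such transcripts in all, 29 in on-Tc 1, 13 in on-Tc 2 and 10 in on-Tc 3, against 17 in control 1, 23 in control 2 and 8 in control 3. The digit in the library names (1 or 2) went partly with the groups, being 2, 1 and 2 in on-Tc libraries and 1 in all controls. With the digit as a covariate edgeR still called 0 transcripts, with 177 at an unadjusted p under 0.05. Leaving out each of the 6 libraries in turn also gave 0 calls, with 221 to 472 at an unadjusted p under 0.05.

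The larval values of the transcripts that adults changed on tetracycline were smaller and mostly of the same sign. In adult midguts, on-Tc and control libraries differed for 27 of 11435 transcripts (0.236%) at an edgeR FDR under 0.05. All 6 that rose in adults were also higher in on-Tc larvae, with a median log2 difference of 0.97 in larvae and 2.76 in adults. Of the 21 that fell in adults, 17 were lower in on-Tc larvae, with medians of -0.29 in larvae and -1.68 in adults. Over all 10636 transcripts tested in both stages, 60.9% had the same sign in the 2 stages, and the differences correlated at Pearson's r = 0.230 and Spearman's rho = 0.293, a description across transcripts of stages that share no library. The adult members were selected for their size in adults, so a smaller value elsewhere is no result in itself.

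Of the 27, only g4404.t1 had an unadjusted edgeR p under 0.05 in larvae, with a log2 difference of 1.446 ± 0.56 (SE) and an FDR of 0.999. Its levels were 26.5, 117.5 and 35.0 CPM in on-Tc larvae, against 20.7, 18.97 and 26.1 CPM in control larvae. The groups did not overlap, though on-Tc 1 and control 3 were nearly equal and on-Tc 2 stood far above the rest. In adults the same transcript had 1020, 686 and 1133 CPM on-Tc, against 113, 170 and 105 CPM in controls. Another of the 27, g13154.t1, also had larval groups that did not overlap, at 7.84, 4.43 and 7.31 CPM on-Tc, against 9.87, 12.5 and 9.56 CPM in controls. Both are named after their values were seen, and both counts, 1 and 2 of 27, are near the shares over all larval transcripts tested, 2.45% at an unadjusted edgeR p under 0.05 and 7.4% without overlap.

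The larval values of the 2 largest changes in each direction in adults were as follows. In larvae g17104.t1 had 0.308, 1.77 and 0.0220 CPM on-Tc, against 0.0796, 0.0399 and 0.386 CPM in controls. On-Tc 2 alone was high, and the larval log2 difference of 2.004 ± 1.31 (SE) became -0.15 without it. For g11224.t1 larval levels were 2.40, 6.70 and 7.01 CPM on-Tc and 3.07, 0.120 and 3.50 CPM in controls (log2 difference 1.26 ± 0.89, SE). The fall of g3349.t1 in adults had no separated counterpart, at 0.677, 0.660 and 1.37 CPM in on-Tc and 0.971, 1.70 and 1.36 CPM in control larvae. For g17163.t1 the larval libraries were 4.86, 5.23 and 7.47 CPM on-Tc and 4.81, 5.29 and 5.01 CPM in controls, a log2 difference of 0.22 (95% interval -0.43 to 0.87), whereas in adults it was -2.25.

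**Figure D5:**
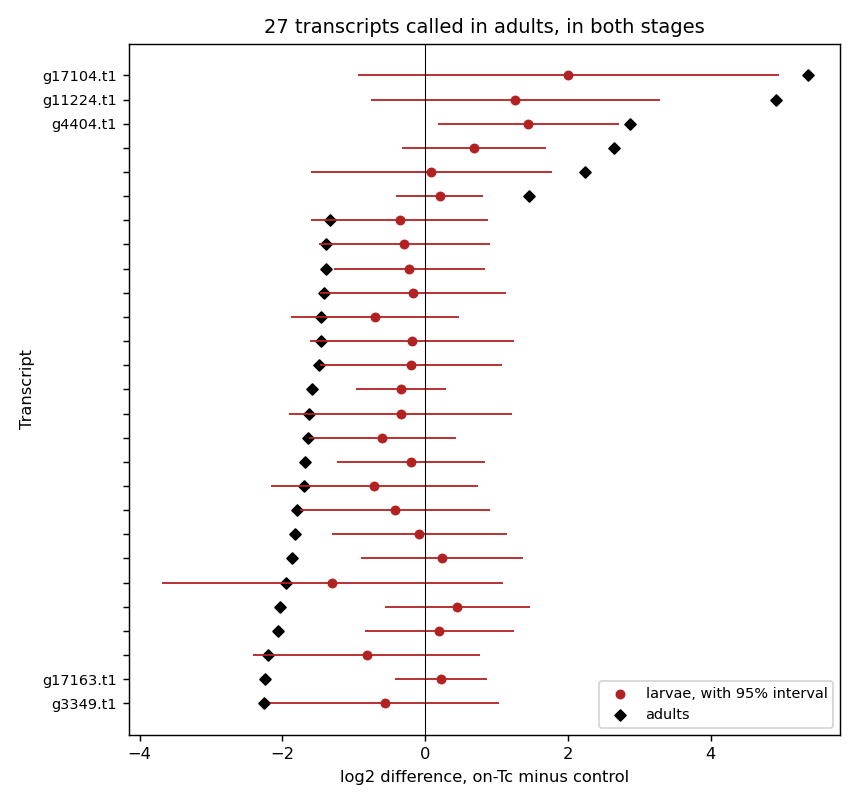
Log2 difference, on-Tc minus control, of the 27 transcripts called in adults, in larvae (circles with 95% interval) and in adults (diamonds), ordered by the adult value. Larval values lie nearer to 0 than the adult ones throughout, and 1 larval interval, that of g4404.t1, leaves out 0.

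Tested directly, the tetracycline difference in adults minus that in larvae passed an FDR of 0.05 for 0 of 12599 transcripts (0%) by edgeR, while 903 (7.17%) had an unadjusted p under 0.05. By DESeq2 the count was 52, and by limma-voom it was 0. The smallest FDR, 0.0906, was that of g17163.t1, with a log2 difference between stages of -2.46 ± 0.37 (SE). Without adult control 1, edgeR called 1 transcript, g17157.t1 (FDR 0.0057). The absence of larval calls and the presence of adult calls are therefore not shown to differ between stages for any transcript by edgeR over all 18 libraries.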

How the data were processed

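Poly(A)-selected midgut RNA was sequenced, per the labels' protocols. The deposited values are raw counts for each predicted transcript, judged from whole numbers and unequal column sums. The submitters' processing notes name Trimmomatic, STAR, featureCounts and DESeq2, without versions or roles; genome build, annotation, strand and pair counting were not given in the sources used here. Among counts of 1 to 20, even values made up 64.0% to 70.7%, so halved counts were tried.

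Columns were matched to samples by library name and groups taken from titles. Library pairs within a group differed far beyond counting error, with a chi-square of 331 to 777 per degree of freedom. With edgeR 4.0.16 (R 4.3.3), the 9 larval libraries were fitted with a mean per group after filterByExpr (minimum count 10, minimum total 15), TMM scaling and Benjamini-Hochberg adjustment over all transcripts tested, and called at FDR under 0.05. Standard errors and 95% intervals came from the F statistic. Adult and interaction fits used 9 and 18 libraries. Log2 CPM used a prior count of 2. DESeq2 1.42.0, limma-voom (limma 3.58.1), scaling, filter, sample and leave-one-out alternatives were run. Figures used matplotlib 3.10.9.

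Transcripts named by rule were those with the smallest p in each direction among non-overlapping groups, at most 2 a direction because no names are paired with IDs, the 3 with the most counts, and the 2 largest adult calls in each direction. Comparisons, lists and rules were chosen with earlier results of these data known. The labels do not say whether same-numbered libraries were paired, and the main fit did not pair them. Same-numbered on-Tc and control libraries deviated from their group means with correlations of -0.15, -0.18 and -0.03. For post-Tc and control these were -0.05, 0.30 and 0.35, and for on-Tc and post-Tc 0.06, -0.39 and -0.17. Intervals cover the spread between libraries, which 3 libraries a group estimate poorly.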

Additional observations from a re-analysis of the deposited data

How the results depend on the processing

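The larval count of calls was 0 in the main fit and in 20 of 21 alternatives, with a smallest FDR of 0.141 among those 20; the exception was DESeq2 with 16 calls, and the cause was not tested. With the replicate number as a block, edgeR called 0, with 217 at an unadjusted p under 0.05 and 284 without the block; the block changed no call. Counts at an unadjusted p under 0.05 ranged from 165 (filter of 1 CPM in 3 libraries) to 551 (no filter), with 464 by DESeq2, 478 over all 18 libraries and 472 without on-Tc 1. Leaving out control 2, post-Tc 1 and post-Tc 2 together, an alternative chosen after seeing the data, gave 0 calls and 305 at an unadjusted p under 0.05. For the difference between stages DESeq2 called 52, and fits with a library left out called 0 to 1. The block gave 0 there, with 652 at an unadjusted p under 0.05. The median size over the 100 transcripts with the most counts ranged from 0.217 (without control 2) to 0.406 (without on-Tc 3) on the log2 scale. Signs of named transcripts turned for g11374.t1 with the library-name digit (-0.35), without on-Tc 1 (-0.20), on-Tc 2 (-0.0047) or control 1 (-0.18; range up to 0.36, without on-Tc 3), for g17104.t1 without on-Tc 2 (-0.15; range up to 3.51, without control 3) and for g3349.t1 with the digit (0.0045). The detection difference stayed negative, from -720 to -440 with a library left out, -139.7 at a minimum of 10 counts and -1045 without thinning. Intervals were widest under 1 CPM, typically 3.10-fold to either side; depth and the spread between libraries were not separated there.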

Other observations

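The run of gene numbers 6637 to 6649 was largely a larval signal. In adult midguts, 10 of its 11 tested transcripts together had at most 32 counts in any library. The exception, g6646.t1, chosen after its values were seen, had 0.307, 0.258 and 0.248 CPM in adult on-Tc libraries, against 1.94, 0.924 and 1.94 CPM in adult controls. These adult groups did not overlap, with a log2 difference of -2.53 and an edgeR FDR of 0.0936, past no threshold. Adult post-Tc libraries had 0.481, 0.372 and 1.22 CPM. In larvae the same transcript was at 0.277, 0.383 and 0.441 CPM on-Tc, against 1.91, 2.06 and 18.3 CPM in controls.

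Post-Tc larval library 3 was like the on-Tc libraries in some of the values above and unlike them in others. It was the nearest library to on-Tc 2 (0.855), and its summed level of the run, 2.79 CPM, lay within the on-Tc range. It was nearer to control 3 (0.956) than to on-Tc 1 (1.121) or on-Tc 3 (1.038). Its levels of g19902.t1, 7.82 CPM, and g15044.t1, 1.03 CPM, were below the on-Tc range, on the side of the controls. Its level of g13604.t1, 38.2 CPM, was also below the on-Tc range, but on the side away from the controls. Its levels of g1590.t1, 4.88 CPM, and g16137.t1, 0.587 CPM, lay within the on-Tc range. It also detected the fewest transcripts of the 9 larval libraries at equal totals, 13029, against 14083 and 14140 in the other post-Tc libraries.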
